A study of Mus musculus with 6 samples.

Results

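The data cover the genes of the voltage-gated sodium channels, the voltage-gated calcium channels and the HCN channels in 3 regions of the mouse brain. A list of 33 genes of pore-forming and auxiliary subunits was taken by name, and 31 of them had a probe set that the array annotation assigns to that single symbol, of 22180 genes measured in that way in all. Scn4a and Cacnb3 were not matched, and no signal of theirs is analysed here. Each gene is represented by its brightest probe set over the 6 arrays, and the regions were compared within each mouse. The regions were the parvafox nucleus, a small cord of parvalbumin-containing and Foxb1-expressing neurons in the ventrolateral hypothalamus, a stretch of piriform and entorhinal cortex, and the CA2 and CA3 fields of the hippocampus. All were cut by laser from frozen horizontal brain sections of 2 untreated adult animals of the C57BL/6 strain, numbered 355 and 511, although the label of the nucleus of mouse 511 leaves its strain out. The authors chose these 2 from a larger set of mice for their better preserved and more concentrated RNA. Each region of each mouse gave 1 RNA extract, which was amplified and hybridised to 1 Affymetrix Mouse Gene 2.0 ST array. The nucleus was found by the lectin-stained perineuronal nets on neighbouring sections and was cut out as a patch of tissue, so that its RNA comes from neurons, glia and fibres together.

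Voltage-gated sodium channels open on depolarization and carry the rising phase of the action potential, and their alpha subunit forms the pore while beta subunits alter its gating and its place in the membrane. Voltage-gated calcium channels turn the action potential into calcium entry, which drives transmitter release, dendritic spikes and gene expression. In many of them the pore subunit is brought to the membrane by an alpha2delta and a beta subunit. HCN channels open on hyperpolarization and contribute to rhythmic firing, and some of them are shifted by cyclic nucleotides. Parvalbumin-containing neurons of the forebrain often fire fast trains of short spikes, for which the supply and the recovery of sodium channels matter.

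In these arrays the channel genes differed between the regions in both directions. Cacna1e, which encodes the pore of the R-type calcium channel, had a lower signal on both nucleus arrays than on every cortex and hippocampus array, by 0.96 to 1.80 on the log2 scale within the mice. Scn4b, a sodium channel beta subunit, was bright in the nucleus and the cortex and dim in the hippocampus of both mice. Scn1a, Cacna2d2 and Hcn3, and at low signal Cacna1s, were higher on both nucleus arrays than on any of the 4 reference arrays. Like Cacna1e, the genes Scn2a, Scn2b, Scn3b, Cacna1b, Cacna1h and Cacnb4 were lower on both nucleus arrays than on any reference array. How many of all genes lay outside the reference arrays in this way was not counted. By sign within the mice, 25.8% of the 31 were lower in the nucleus in all 4 comparisons and 19.4% higher. Over all genes these shares were 15.1% and 16.2%. None of the 31 genes passed limma's adjusted p of 0.05 in any of the 3 comparisons, so each of these is a description of 2 mice, and the small number of arrays sets the precision.

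The sequences just upstream of the annotated start of a few of these genes are shown because the genes lie next to each other and yet had unlike regional signals. Scn4b and Scn2b are neighbours on chromosome 9, with no other protein-coding gene between them in the RefSeq gene table. Scn1a and Scn2a lie on chromosome 2 in the sodium channel cluster that also holds Scn3a, Scn9a and Scn7a, with 3 protein-coding genes between the pair. Cacna1e is shown as the gene with the largest mean difference between the nucleus and the other regions. Each run holds the 250 bases before a start site in RefSeq, build GRCm38.p6, written 5′ to 3′ along the gene's strand, with every CG dinucleotide in capitals.
Scn4b, chr9:45138374-45138623, plus strand: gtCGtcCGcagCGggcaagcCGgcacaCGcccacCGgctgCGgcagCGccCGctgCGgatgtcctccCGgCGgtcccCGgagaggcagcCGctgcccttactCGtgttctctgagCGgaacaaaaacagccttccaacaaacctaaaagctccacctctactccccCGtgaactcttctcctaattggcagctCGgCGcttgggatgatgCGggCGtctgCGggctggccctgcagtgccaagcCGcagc
Scn2b, chr9:45117626-45117875, plus strand: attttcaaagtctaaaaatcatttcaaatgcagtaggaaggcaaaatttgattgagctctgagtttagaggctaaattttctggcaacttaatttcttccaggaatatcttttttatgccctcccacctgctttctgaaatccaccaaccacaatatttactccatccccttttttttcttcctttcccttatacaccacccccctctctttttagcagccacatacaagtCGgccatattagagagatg
Scn1a, chr2:66440838-66441087, minus strand: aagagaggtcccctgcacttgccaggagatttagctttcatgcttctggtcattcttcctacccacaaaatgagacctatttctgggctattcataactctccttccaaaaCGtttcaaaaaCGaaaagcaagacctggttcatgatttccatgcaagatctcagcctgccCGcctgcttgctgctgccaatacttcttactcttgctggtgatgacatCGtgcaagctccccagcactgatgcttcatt
Scn2a, first of its windows, chr2:65620519-65620768, plus strand: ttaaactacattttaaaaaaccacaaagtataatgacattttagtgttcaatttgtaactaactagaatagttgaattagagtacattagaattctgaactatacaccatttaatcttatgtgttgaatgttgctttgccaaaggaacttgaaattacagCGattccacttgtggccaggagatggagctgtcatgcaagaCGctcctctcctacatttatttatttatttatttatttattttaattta
Cacna1e, chr1:154725921-154726170, minus strand: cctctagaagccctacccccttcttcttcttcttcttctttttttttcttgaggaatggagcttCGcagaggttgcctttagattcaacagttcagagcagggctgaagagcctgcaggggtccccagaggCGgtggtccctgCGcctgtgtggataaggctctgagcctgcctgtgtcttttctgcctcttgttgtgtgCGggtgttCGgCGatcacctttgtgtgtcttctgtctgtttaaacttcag

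The Scn4b run holds 23 CG dinucleotides and 66% G and C, and the Scn2b run next door holds 1 and 38.4%. The Scn1a run holds 4, the Cacna1e run holds 6, and the Scn2a runs hold 2 in the one printed and 9 in a second window at chr2:65668436-65668685. Over all 32851 windows of that length the median was 6, with quartiles of 2 and 16. Windows were found for 26 of the 33 listed genes, Scn4a and Cacnb3 among them, 36 windows in all, with a median of 9. Of these, 14 held at least 20 CG dinucleotides, against 17.9% of all windows. The letters CCAAT, searched on both strands, occur in the Scn4b and the Scn1a run and in 33.8% of all windows. The letters TATAAA, also searched on both strands, occur in the second Scn2a window and in 12.4% of all windows, and in none of the printed runs. None of the printed runs holds GGGCGG, found in 32.7% of all windows, or TGACGTCA, found in 1.55%. These are matches of letters, and no measurement of binding or methylation belongs to them.

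The deposited values are log2 signals after RMA, and every signal below is on that scale, with mouse 355 named first and mouse 511 second. A difference of 1 is a 2-fold change. The array medians lay between 3.54 and 3.68, and the median over genes of the mean signal was 4.31. Of the 31 channel genes, 22 had a mean signal above this value and 9 below, which gives their place on the array and is no detection call, and signals of different probe sets are not set against each other here. The median difference between the mice, taken without sign, was 0.23 over the channel genes for the nucleus, 0.38 for the cortex and 0.30 for the hippocampus, and over all genes it was 0.27, 0.24 and 0.24.

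The labelled regions were checked by markers. Among the 7 markers of the lateral hypothalamus, 3 (Pmch, Slc17a6 and Adcyap1) were at least 2-fold higher on the nucleus side in all 4 within-mouse comparisons, while 7 of 8 markers of excitatory forebrain neurons and 6 of 9 GABAergic markers were at least 2-fold lower. Of the other hypothalamic markers, Foxb1 was higher in all 4, while in mouse 511 Cartpt and Hcrt were lower in the nucleus than in both other regions (Cartpt at -2.96 and -1.88, Hcrt at -0.21 and -0.53) and Nts was lower than in the cortex, at -0.37. Of the genes that give the nucleus its name, Foxb1 measured 5.82 and 4.15 on the nucleus arrays, 3.84 and 3.62 on the cortex arrays, and 3.55 and 3.82 on those of the hippocampus, and Pvalb 7.91 and 7.70 on the nucleus arrays, 7.95 and 5.74 on the cortex arrays, and 7.001 and 6.78 on those of the hippocampus. Foxb1 was thus above the other arrays in both nuclei but below the median of all genes in that of mouse 511, and Pvalb was as high in the cortex of mouse 355 as in the nucleus. Of 11 oligodendrocyte markers, 8 exceeded the hippocampus by at least 2-fold in the nucleus of both mice. The cortex array of mouse 511 stood apart by striatal markers. Their signal, summed over the 4 of 7 that were measured and given as log2, was 11.12 there against 8.18 in the cortex of mouse 355, 9.47 and 8.55 for the nuclei and 7.40 and 7.69 for the hippocampi. The cortex of mouse 355 differed from that of mouse 511 in other markers as well. There Neurod6 measured 5.27, against 9.28 in the cortex of mouse 511 and 8.14 and 8.81 in the hippocampi. Tbr1 measured 4.40 against 6.03 in the cortex of mouse 511, and Slc17a6 8.24 against 6.24. Slc30a3, another excitatory marker, was close in the cortices, at 9.54 and 9.49. In such tissue pieces, fewer cells of a type and less RNA per cell cannot be told apart.

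**Figure D1:**
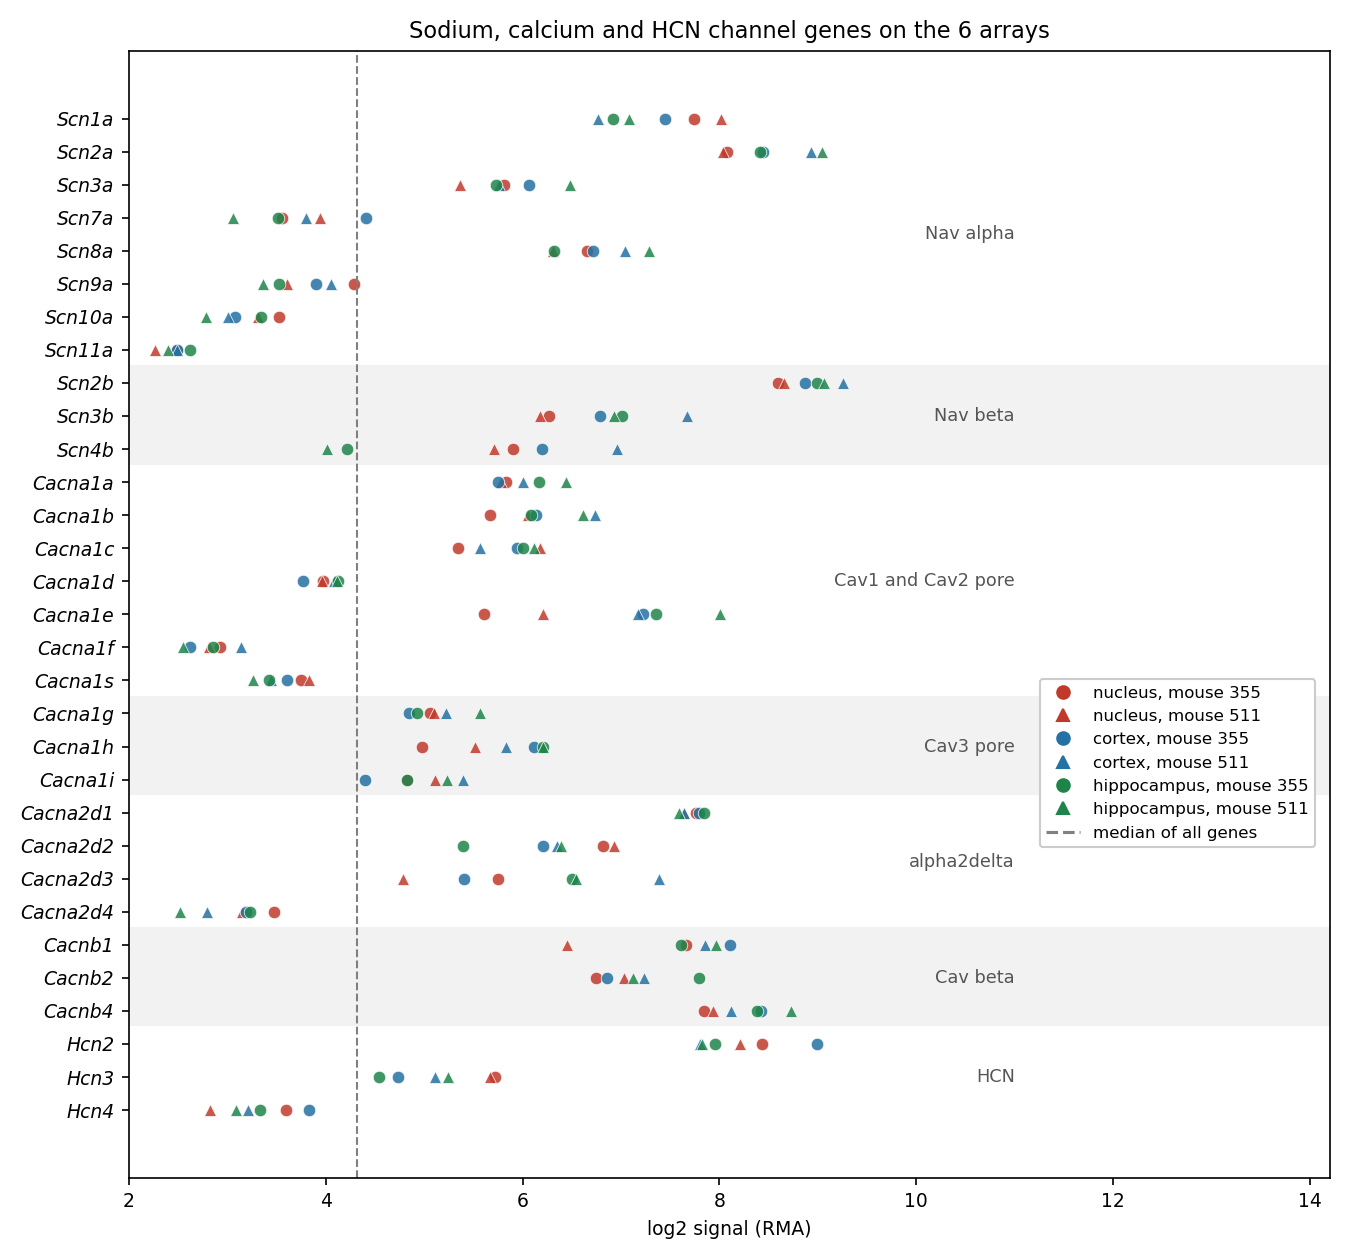
Log2 signal (horizontal axis) of the 31 measured channel genes (rows, grouped by subunit family) on the 6 arrays, with colour for the region, circles for mouse 355 and triangles for mouse 511. The dashed line is the median of all genes at 4.31, and 22 genes have a mean above it.

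Scn1a encodes a sodium channel alpha subunit that is prominent at the axon initial segment of parvalbumin-containing interneurons. Its signal was 7.74 and 8.02 on the nucleus arrays, 7.45 and 6.77 on the cortex arrays, and 6.92 and 7.09 on those of the hippocampus. Both nucleus arrays were above all 4 reference arrays, narrowly above the cortex of mouse 355 and widely above that of mouse 511. The nucleus exceeded the cortex by 0.29 and 1.25 in the 2 mice, and limma gave a mean difference of 0.77 (standard error 0.30, adjusted p = 0.637). The nucleus exceeded the hippocampus by 0.83 and 0.93, with a limma difference of 0.88 (standard error 0.30, adjusted p = 0.484). Pvalb, whose values stand above, was likewise higher in the cortex of mouse 355 than in that of mouse 511, and its part in the Scn1a signals was not tested.

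Scn2a, the alpha subunit of many excitatory neurons and of unmyelinated axons, had the opposite arrangement. It measured 8.07 and 8.03 on the nucleus arrays, 8.44 and 8.93 on the cortex arrays, and 8.41 and 9.05 on those of the hippocampus. The nucleus arrays of both mice were close to each other and below all 4 reference arrays, with within-mouse differences of -0.36 and -0.89 for nucleus minus cortex and -0.33 and -1.01 for nucleus minus hippocampus. The limma difference was -0.63 (standard error 0.24, adjusted p = 0.635) relative to the cortex and -0.67 (standard error 0.24, adjusted p = 0.502) relative to the hippocampus. The within-mouse difference of Scn1a exceeded that of Scn2a by 0.66 and 2.14 against the cortex and by 1.16 and 1.94 against the hippocampus, with the same sign in all 4 comparisons. For cortex minus hippocampus the mice differed in sign, with 0.50 in mouse 355 and -0.20 in mouse 511.

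Scn8a encodes the alpha subunit that gathers at mature initial segments and nodes of Ranvier. Its signal was 6.65 and 6.30 on the nucleus arrays, 6.72 and 7.04 on the cortex arrays, and 6.32 and 7.29 on those of the hippocampus. In mouse 355 the nucleus lay between the other regions, and in mouse 511 it was the lowest, so the groups overlap. Scn3a, an alpha subunit that is strongest before birth, measured 5.82 and 5.36 on the nucleus arrays, 6.07 and 5.76 on the cortex arrays, and 5.73 and 6.48 on those of the hippocampus. Its nucleus arrays overlap the others and the mice disagree on the hippocampus.

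The remaining alpha subunits belong mainly to peripheral sensory neurons or, for Scn7a, to sodium-sensing glia, and their mean signals were below the median of all genes. Scn7a measured 3.56 and 3.94 on the nucleus arrays, 4.41 and 3.80 on the cortex arrays, and 3.51 and 3.06 on those of the hippocampus. In both mice it was higher in the cortex than in the hippocampus, by 0.89 and 0.74, while the nucleus lay on different sides of the cortex in the 2 mice. Scn9a measured 4.29 and 3.61 on the nucleus arrays, 3.90 and 4.06 on the cortex arrays, and 3.52 and 3.36 on those of the hippocampus, and the mice disagree on whether the nucleus or the cortex was higher. Scn10a measured 3.53 and 3.31 on the nucleus arrays, 3.08 and 3.01 on the cortex arrays, and 3.34 and 2.78 on those of the hippocampus. It was higher in the nucleus in all 4 within-mouse comparisons, by 0.19 to 0.53, at signals where the groups overlap across the mice. Scn11a, with 2.27 to 2.63 over the 6 arrays, showed no region apart from the others.

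Scn4b encodes a beta subunit that is linked to resurgent sodium current in cerebellar Purkinje cells. It measured 5.90 and 5.71 on the nucleus arrays, 6.20 and 6.96 on the cortex arrays, and 4.22 and 4.01 on those of the hippocampus. The hippocampus arrays of both mice were the lowest and lay below the median of all genes, the nucleus arrays were close to each other, and the cortex was higher than the nucleus by little in mouse 355 and clearly in mouse 511. The nucleus exceeded the hippocampus by 1.68 and 1.70, a 3.2-fold and 3.24-fold ratio of signals, with a limma difference of 1.69 (standard error 0.31, adjusted p = 0.277). The cortex exceeded the hippocampus by 1.98 and 2.95, which was 3.94-fold and 7.73-fold, with a limma difference of 2.46 (standard error 0.31, adjusted p = 0.98). Against the cortex the nucleus differed by -0.30 and -1.25, with -0.78 (standard error 0.31, adjusted p = 0.648) from limma.

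Other tissue signals moved beside Scn4b. The cortex of mouse 511, its highest array, was also the highest for the striatal genes Drd1 (8.33 against 3.79 in the cortex of mouse 355) and Penk (10.15 against 7.47). In mouse 355, where the summed striatal signal of the cortex was 8.18, Scn4b was 1.98 higher there than in the hippocampus. The oligodendrocyte gene Mog was also lowest in the hippocampus, with 9.01 and 8.62 on the nucleus arrays, 8.35 and 7.64 on the cortex arrays, and 5.72 and 6.98 on those of the hippocampus, and summed oligodendrocyte signal was 12.45 and 12.32 for the nuclei, 12.13 and 11.81 for the cortices and 10.39 and 10.80 for the hippocampi. The part of these cells in the Scn4b signals was not tested.

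Scn2b, whose product is joined to the alpha subunit by a disulfide bond, lies beside Scn4b on the chromosome but did not share its low signal in the hippocampus. It measured 8.59 and 8.66 on the nucleus arrays, 8.87 and 9.26 on the cortex arrays, and 8.99 and 9.06 on those of the hippocampus. Both nucleus arrays were below all 4 reference arrays, at -0.28 and -0.60 relative to the cortex and -0.40 and -0.40 relative to the hippocampus. Set against the hippocampus, the nucleus difference of Scn4b exceeded that of Scn2b by 2.08 and 2.10, and the cortex difference by 2.10 and 2.76. Set against the cortex, the nucleus difference of Scn4b minus that of Scn2b was -0.02 in mouse 355 and -0.66 in mouse 511.

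Scn3b, a beta subunit without that bond, measured 6.27 and 6.18 on the nucleus arrays, 6.79 and 7.67 on the cortex arrays, and 7.01 and 6.93 on those of the hippocampus. Its nucleus arrays were again below all 4 others, at -0.51 and -1.50 relative to the cortex and -0.73 and -0.75 relative to the hippocampus. The limma difference was -1.01 (standard error 0.32, adjusted p = 0.581) from the cortex and -0.74 (standard error 0.32, adjusted p = 0.558) from the hippocampus. The cortex of mouse 511 was the highest of its 6 arrays.

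**Figure D2:**
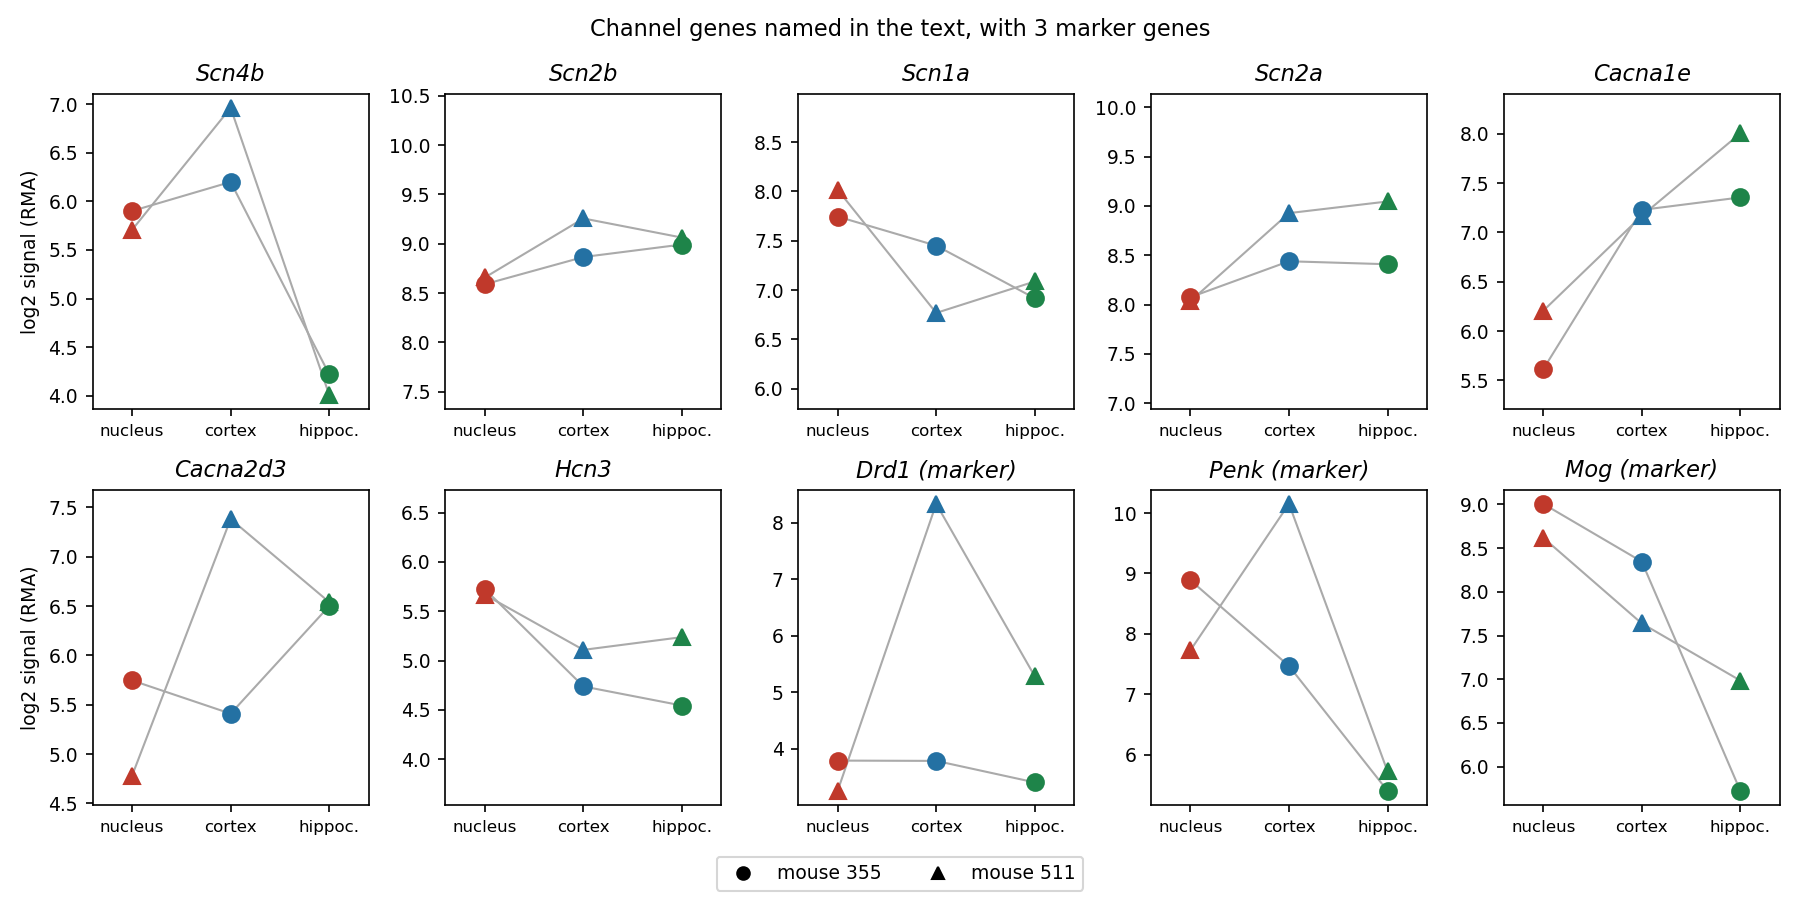
Log2 signal (vertical axes, drawn over different ranges) of 7 channel genes and 3 marker genes by region, with circles for mouse 355, triangles for mouse 511 and a grey line joining the regions of a mouse. Scn4b is lowest in the hippocampus of both mice, Cacna1e is lowest in the nucleus, and Drd1 at 8.33 and Penk at 10.15 set the cortex of mouse 511 apart.

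Among the calcium channel pores, Cacna1e measured 5.61 and 6.21 on the nucleus arrays, 7.23 and 7.17 on the cortex arrays, and 7.36 and 8.004 on those of the hippocampus. The nucleus of each mouse was below all 4 cortex and hippocampus arrays. In mouse 355 and mouse 511 it was -1.62 and -0.96 against the cortex, with signals 3.06-fold and 1.95-fold higher in the cortex, and -1.74 and -1.80 against the hippocampus, with signals 3.35-fold and 3.48-fold higher there. The limma difference was -1.29 (standard error 0.26, adjusted p = 0.457) from the cortex and -1.77 (standard error 0.26, adjusted p = 0.229) from the hippocampus. Against the cortex of mouse 511 the difference was just short of the 2-fold mark. Cacna1e was the only channel gene at least 2-fold lower in the nucleus than in the hippocampus of both mice. The excitatory neuron genes that were low in the same arrays included Slc17a7, the vesicular glutamate transporter of the forebrain, with 4.13 and 3.27 on the nucleus arrays, 9.51 and 9.96 on the cortex arrays, and 9.83 and 9.79 on those of the hippocampus, and summed excitatory signal was 9.88 and 9.91 for the nuclei, 12.23 and 12.80 for the cortices and 12.61 and 12.61 for the hippocampi. Their part in the Cacna1e signal was not tested.

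Cacna1b, the N-type pore that serves transmitter release, measured 5.67 and 6.06 on the nucleus arrays, 6.13 and 6.74 on the cortex arrays, and 6.09 and 6.61 on those of the hippocampus. The nucleus was lower in all 4 within-mouse comparisons, at -0.46 and -0.68 relative to the cortex and -0.42 and -0.55 relative to the hippocampus, although the nucleus of mouse 511 was only just below the hippocampus of mouse 355. Cacna1a, the P/Q-type pore of many central terminals, measured 5.83 and 5.78 on the nucleus arrays, 5.75 and 6.001 on the cortex arrays, and 6.16 and 6.44 on those of the hippocampus. It was highest in the hippocampus of both mice, while the nucleus and the cortex differed by 0.07 and -0.22, on different sides of 0.

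Cacna1c and Cacna1d encode the L-type pores of the brain, which couple activity to gene expression. Cacna1c measured 5.34 and 6.18 on the nucleus arrays, 5.95 and 5.57 on the cortex arrays, and 6.001 and 6.11 on those of the hippocampus. Its nucleus was the lowest array of mouse 355 and the highest of mouse 511, so the mice disagree. Cacna1d measured 3.97 and 3.96 on the nucleus arrays, 3.77 and 4.08 on the cortex arrays, and 4.13 and 4.11 on those of the hippocampus, with all arrays within a narrow span below the median of all genes. The other L-type pores serve the retina and skeletal muscle. Cacna1f measured 2.55 to 3.14 over the arrays. Cacna1s measured 3.75 and 3.83 on the nucleus arrays, 3.61 and 3.45 on the cortex arrays, and 3.43 and 3.27 on those of the hippocampus, and was higher in the nucleus in all 4 comparisons by 0.15 to 0.56 at these low signals. Skeletal muscle genes gave a median nucleus-minus-cortex difference of 0.00 and -0.34 over 6 markers, and -0.046 and -0.00058 for nucleus minus hippocampus. Of these markers, 1 was higher in the nucleus in all 4 comparisons and 1 was lower. The part of muscle in the Cacna1s signal was not tested.

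The T-type pores open near rest and support burst firing. Cacna1h measured 4.98 and 5.52 on the nucleus arrays, 6.11 and 5.83 on the cortex arrays, and 6.21 and 6.20 on those of the hippocampus. Both nucleus arrays were below all others, at -1.13 and -0.31 relative to the cortex and -1.23 and -0.69 relative to the hippocampus. The limma difference was -0.72 (standard error 0.26, adjusted p = 0.62) from the cortex and -0.96 (standard error 0.26, adjusted p = 0.401) from the hippocampus. Cacna1g measured 5.06 and 5.10 on the nucleus arrays, 4.85 and 5.23 on the cortex arrays, and 4.92 and 5.57 on those of the hippocampus, and Cacna1i, the T-type pore known from the thalamic reticular nucleus, measured 4.82 and 5.11 on the nucleus arrays, 4.40 and 5.39 on the cortex arrays, and 4.83 and 5.23 on those of the hippocampus. For both, the nucleus lay among the other arrays.

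The alpha2delta subunits had unlike patterns. Cacna2d1, a binding site of gabapentin, measured 7.76 and 7.64 on the nucleus arrays, 7.80 and 7.64 on the cortex arrays, and 7.84 and 7.59 on those of the hippocampus, and its within-mouse differences stayed between -0.08 and 0.05 in the 4 comparisons of the nucleus. Cacna2d2, which in mice is known for the ataxia its loss causes, measured 6.82 and 6.93 on the nucleus arrays, 6.21 and 6.35 on the cortex arrays, and 5.39 and 6.39 on those of the hippocampus. Both nucleus arrays were above the other 4, by 0.61 and 0.58 relative to the cortex and 1.42 and 0.54 relative to the hippocampus, and limma gave 0.59 (standard error 0.29, adjusted p = 0.703) for the cortex and 0.98 (standard error 0.29, adjusted p = 0.43) for the hippocampus.

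Cacna2d3 had the widest spread between the mice of the 31 genes, in the cortex. It measured 5.75 and 4.78 on the nucleus arrays, 5.41 and 7.38 on the cortex arrays, and 6.50 and 6.54 on those of the hippocampus. The nucleus was below the hippocampus in both mice, at -0.75 and -1.76, but relative to the cortex it was higher in mouse 355 and far lower in mouse 511, at 0.34 and -2.60. The limma difference was -1.13 (standard error 0.71, adjusted p = 0.755) from the cortex and -1.26 (standard error 0.71, adjusted p = 0.657) from the hippocampus. Without the cortex array of mouse 511 the first of these turned to 0.09, and without that of mouse 355 it was -2.35. The array of mouse 511 is the one with the high striatal signal given above. That of mouse 355 is the one with the lower Neurod6 and Tbr1. The part of either in the Cacna2d3 values was not tested. Cacna2d4, an alpha2delta subunit of the retina, measured 3.48 and 3.15 on the nucleus arrays, 3.19 and 2.79 on the cortex arrays, and 3.23 and 2.52 on those of the hippocampus, which put the nucleus higher in all 4 comparisons by 0.25 to 0.63 at signals below the median of all genes.

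The beta subunits of the calcium channel bind the pore inside the cell and help it to the membrane. Cacnb4 measured 7.84 and 7.93 on the nucleus arrays, 8.42 and 8.12 on the cortex arrays, and 8.38 and 8.72 on those of the hippocampus. Both nucleus arrays were below the other 4, at -0.58 and -0.18 relative to the cortex and -0.54 and -0.79 relative to the hippocampus. Its dimmer second probe set gave 5.31 and 6.26 on the nucleus arrays, 6.47 and 7.01 on the cortex arrays, and 6.02 and 6.21 on those of the hippocampus, where the nucleus of mouse 511 no longer lay below its hippocampus. Cacnb2 measured 6.75 and 7.03 on the nucleus arrays, 6.86 and 7.24 on the cortex arrays, and 7.80 and 7.12 on those of the hippocampus, lower in the nucleus in all 4 comparisons by amounts from 0.09 to 1.05. Cacnb1, the beta subunit of skeletal muscle that brain also carries, measured 7.66 and 6.45 on the nucleus arrays, 8.10 and 7.85 on the cortex arrays, and 7.61 and 7.96 on those of the hippocampus. The nucleus was below the cortex in both mice, by more in mouse 511, and below the hippocampus in mouse 511 only. Limma gave -0.92 (standard error 0.40, adjusted p = 0.673) relative to the cortex and -0.73 (standard error 0.40, adjusted p = 0.648) relative to the hippocampus.

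Of the HCN channels, Hcn3 measured 5.72 and 5.67 on the nucleus arrays, 4.74 and 5.11 on the cortex arrays, and 4.54 and 5.24 on those of the hippocampus. The nuclei of the 2 mice were close to each other and above all 4 reference arrays, by 0.99 and 0.56 relative to the cortex and 1.18 and 0.43 relative to the hippocampus. The limma difference was 0.77 (standard error 0.25, adjusted p = 0.584) from the cortex and 0.80 (standard error 0.25, adjusted p = 0.448) from the hippocampus. Hcn2, the widespread neuronal form, measured 8.43 and 8.21 on the nucleus arrays, 8.99 and 7.80 on the cortex arrays, and 7.96 and 7.83 on those of the hippocampus. It was higher in the nucleus than in the hippocampus of both mice, by 0.47 and 0.38, and on different sides of the cortex, whose array of mouse 355 was the highest of all. Hcn4, known from the heart's pacemaker and the thalamus, measured 3.60 and 2.83 on the nucleus arrays, 3.83 and 3.21 on the cortex arrays, and 3.33 and 3.09 on those of the hippocampus, and the mice differed from each other in the nucleus by more than the regions did within either mouse.

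**Figure D3:**
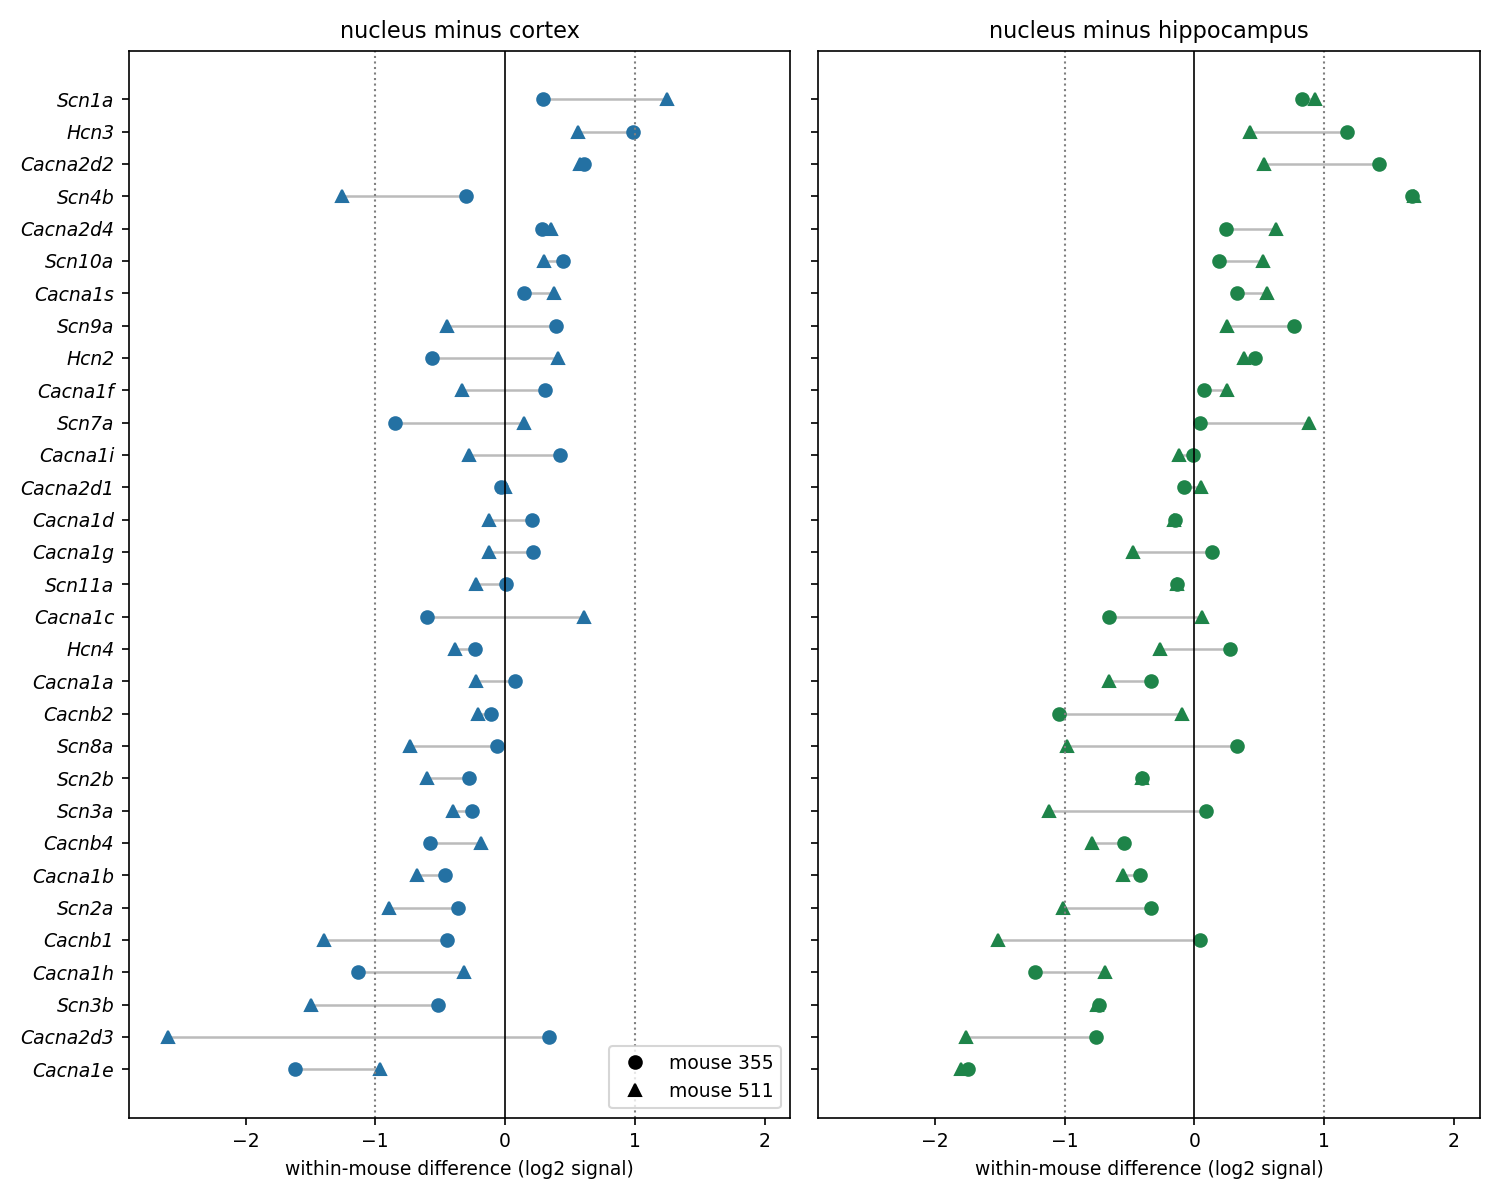
Within-mouse difference in log2 signal, nucleus minus cortex on the left and nucleus minus hippocampus on the right, for the 31 channel genes ordered by the mean of their 4 differences, with circles for mouse 355, triangles for mouse 511 and dotted lines at 2-fold. Cacna1e stands at the low end and Scn1a and Hcn3 at the high end, and the 2 mice part widely for Cacna2d3 against the cortex.

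Counted over the list, 8 of the 31 genes were lower in the nucleus in all 4 within-mouse comparisons by any size, which was 25.8% of them against 15.1% of all genes. They were Scn2a, Scn2b, Scn3b, Cacna1b, Cacna1e, Cacna1h, Cacnb2 and Cacnb4, and in all of these but Cacnb2 both nucleus arrays were below all 4 reference arrays. Another 6 were higher in all 4, or 19.4% against 16.2% of all genes, namely Scn1a, Scn10a, Cacna1s, Cacna2d2, Cacna2d4 and Hcn3, of which Scn1a, Cacna1s, Cacna2d2 and Hcn3 lay above all 4 reference arrays. The other 17 had mixed signs. The share of all genes with both nucleus arrays outside the 4 reference arrays was not counted. The 4 comparisons share the nucleus arrays 2 by 2, so they are not 4 independent measurements. The shares of all genes cover genes of every signal, while 22 of the 31 had a mean above the gene median. Without the cortex of mouse 511, 8 were lower and 8 higher in the 3 comparisons left, where 19.3% and 21.3% of all genes were. Without the cortex of mouse 355 the numbers were 13 and 8, with 20.4% and 22.6% of all genes. Median neuronal marker signal also differed, being lower in the nucleus than in the cortex by 0.13 in mouse 355 and 0.60 in mouse 511, and lower than in the hippocampus by 0.04 and 0.61. Its part in the lower genes was not tested.

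By family, 2 of 3 sodium channel beta subunits, 2 of 3 calcium channel beta subunits, 2 of 7 L, P/Q, N and R-type pores, 1 of 3 T-type pores and 1 of 8 sodium channel alpha subunits were lower in all 4 comparisons, and no alpha2delta or HCN gene was. Higher in all 4 were 2 of 8 sodium channel alpha subunits, 2 of 4 alpha2delta subunits, 1 of 3 HCN genes and 1 of 7 of the L, P/Q, N and R-type pores. Over all genes 15.1% were lower and 16.2% higher in all 4, and in families of 3 to 8 genes such counts say little. The 2 calcium channel beta subunits are Cacnb2 and Cacnb4, whose second probe sets were lower in only 3 of the 4 comparisons.

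At the 2-fold mark in all 4 comparisons, no channel gene was lower, against 0.672% of all genes, and none was higher, against 0.216%. Against the cortex, none of the 31 was at least 2-fold lower in both mice (0.956% of all genes) and none higher (0.415%). Against the hippocampus, Cacna1e was lower (1.52% of all genes) and Scn4b higher (0.987%). Between cortex and hippocampus, none was lower in the cortex (0.198% of all genes) and Scn4b was higher (0.307%). A single gene is 3.23% of the 31, so that a count of 0 or 1 on this list says little beside such backgrounds.

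In limma, 0 of the 31 genes passed the adjusted p of 0.05 in the comparison of the nucleus with the cortex, where 0% of the 41345 probe sets passed. The comparison with the hippocampus also gave 0, with 0.00242% of all probe sets (1 in number), and that of cortex with hippocampus gave 0, with 0%. At an unadjusted p under 0.05 there were 5 against the cortex (Scn3b, Cacna1b, Cacna1e, Cacna1h and Hcn3), where 7.86% of all genes passed. There were 8 against the hippocampus (Scn1a, Scn2a, Scn4b, Cacna1e, Cacna1h, Cacna2d2, Cacnb4 and Hcn3), where 10.4% of all genes passed. There were 2 between cortex and hippocampus (Scn4b and Scn7a), where 4.22% passed. Across the 31 genes the median log2 difference was -0.11 for nucleus minus cortex, -0.15 for nucleus minus hippocampus and 0.03 for cortex minus hippocampus, and over all genes it was 0.01, 0.02 and 0.01. Without sign the median was 0.35, 0.48 and 0.19 for the channel genes and 0.20, 0.21 and 0.17 for all genes. Of the 31, 22 had a mean signal above the median of all genes, and the values over all genes were not matched for signal. No statement on the list as a whole was tested.

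**Figure D4:**
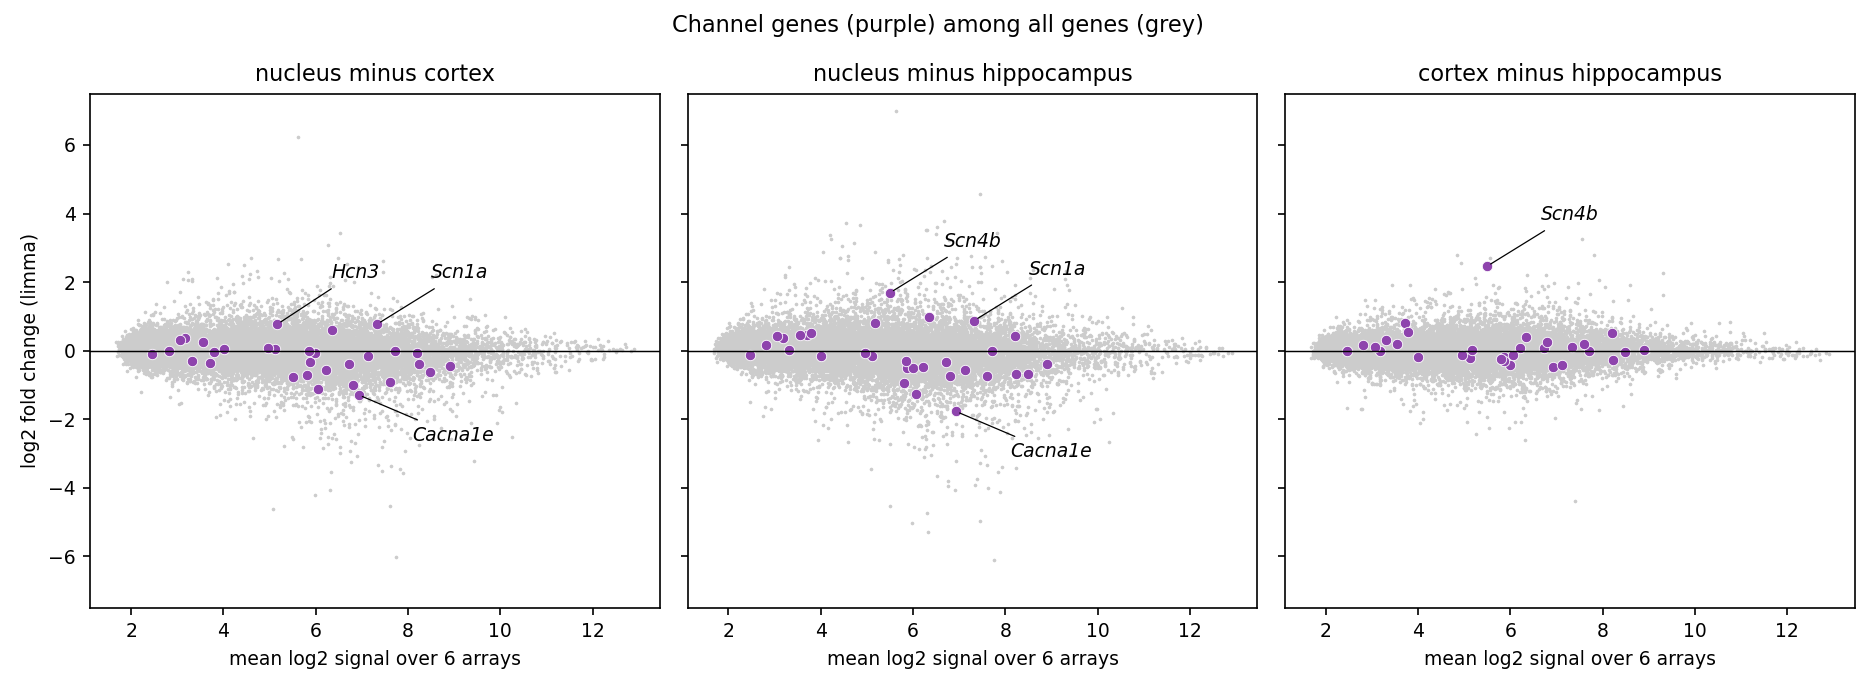
Limma log2 fold change (vertical axis) against the mean log2 signal over the 6 arrays (horizontal axis) for all genes in grey and the 31 channel genes in purple, in the 3 comparisons of the regions. Scn4b stands highest of the channel genes in both comparisons with the hippocampus, and Cacna1e lowest in both comparisons of the nucleus.

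The channels work with partners that anchor them, modulate them or link them to release sites. Of 37 such genes, 36 were measured and 0 passed limma's adjusted p in any comparison, while 6, 10 and 4 had an unadjusted p under 0.05 for nucleus minus cortex, nucleus minus hippocampus and cortex minus hippocampus. These are 16.7%, 27.8% and 11.1% of the 36, beside 7.86%, 10.4% and 4.22% of all genes. In all 4 comparisons of the nucleus, 9 were lower by any size (Fgf13, Nrcam, Nedd4l, Unc80, Cacng3, Cacng8, Rimbp2, Rims1 and Cachd1) and 3 were higher (Nalcn, Cacng1 and Stac3), which is 25% and 8.33% of the 36 beside the 15.1% and 16.2% of all genes given above. Cacng8, a subunit related by family to the calcium channel gamma subunits and known for its work at AMPA receptors, was at least 2-fold lower in all 4. It measured 7.06 and 6.65 on the nucleus arrays, 8.07 and 7.87 on the cortex arrays, and 8.16 and 8.54 on those of the hippocampus, and limma gave -1.12 (standard error 0.26, adjusted p = 0.514) relative to the cortex and -1.50 (standard error 0.26, adjusted p = 0.263) relative to the hippocampus. Cacng3, its relative, measured 6.73 and 6.18 on the nucleus arrays, 8.07 and 8.71 on the cortex arrays, and 7.39 and 8.07 on those of the hippocampus, at least 2-fold lower than the cortex in both mice. Nalcn, the pore of the sodium leak channel, measured 6.24 and 6.83 on the nucleus arrays, 6.23 and 6.21 on the cortex arrays, and 6.01 and 6.56 on those of the hippocampus, with the nucleus higher by 0.01 and 0.62 relative to the cortex and 0.23 and 0.27 relative to the hippocampus. Nrcam, an adhesion molecule of the node and the initial segment, measured 7.70 and 7.75 on the nucleus arrays, 8.25 and 8.41 on the cortex arrays, and 8.22 and 8.53 on those of the hippocampus, with both nucleus arrays below the other 4. Ank3, whose product ankyrin-G holds sodium channels at the initial segment, measured 7.60 and 7.82 on the nucleus arrays, 7.38 and 7.79 on the cortex arrays, and 7.15 and 7.82 on those of the hippocampus and showed no such order.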

How the data were processed

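The authors scanned 6 arrays and made the deposited log2 values with RMA, and per the labels Affymetrix Expression Console, R 2.14.2, limma and Partek were used; the build behind the array's gene names is not given in the sources used here. A file of 41345 probe sets was used as deposited, of which 23521 carry 1 gene symbol, 1820 several and 16004 none. Region and mouse were fitted in limma 3.58.1 (R 4.3.3) over all probe sets and 6 arrays, with 2 residual degrees of freedom and Benjamini-Hochberg adjustment. The mouse is a block because the regions come from the same animals, and their mouse differences correlated at 0.079 for nucleus with cortex, 0.059 for nucleus with hippocampus and 0.060 for cortex with hippocampus. The procedure was also run on simulated data, with planted nucleus changes larger than any fitted nucleus difference of a channel gene. That run therefore does not show how often changes of the reported sizes would be found. Python 3.11.15 made the tables and plots.

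Alternatives were no replicate block, a random block, cyclic loess, median centring, other filters and probe set rules, an intensity trend, robust eBayes, folds of 1.5 and 3, and each array or mouse left out. The members, lists and alternatives were chosen with earlier results of these data known. Limma values are given for genes at least 2-fold apart in both mice and for the member of each other family with the largest difference; Scn2a, Scn3b and Cacna2d2 and the partners other than Cacng8 were added after their values were seen.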

Additional observations from a re-analysis of the deposited data

How the results depend on the processing

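With 1 array per region and mouse, precision is limited by the arrays, and no detection call was used. Under every alternative run, 0 of the 31 channel genes passed limma's adjusted p in each comparison, also in the fit with no replicate block. Over all probe sets the calls were 0, 1 and 0 for nucleus minus cortex, nucleus minus hippocampus and cortex minus hippocampus. With no replicate block, which leaves 3 residual degrees of freedom in place of 2, they were 6, 20 and 0. Leaving out the block thus changed counts over all probe sets and no call on a channel gene. With the block kept, the fit to probe sets of 1 gene symbol alone gave 8, 34 and 0. The lowest adjusted p over the alternatives was 0.0833 for Cacna1e and 0.116 for Scn4b, both for nucleus minus hippocampus, and the highest were 0.62 and 0.698.

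The cause of the following shifts was not tested. Leaving out single arrays moved the median log2 difference of the channel genes for nucleus minus cortex between -0.22 (without the cortex of mouse 355) and -0.0058 (without that of mouse 511). For nucleus minus hippocampus it lay between -0.24 (without the nucleus of mouse 355) and -0.056 (without that of mouse 511), with -0.076 and -0.084 without the hippocampus of mouse 355 and of mouse 511, and for cortex minus hippocampus between 0.0058 and 0.089 (without the cortex of mouse 511 and of mouse 355). At a fold of 1.5 in place of 2, in both mice, 1 gene was lower in the nucleus relative to the cortex (2.89% of all genes), 4 were lower (4.08%) and 2 higher (2.87%) relative to the hippocampus, 2 were higher in the cortex than in the hippocampus (1.25%), and 1 was lower in all 4 comparisons (1.68%). Median centring gave 1 gene lower relative to the cortex (1.01%) and 1 in all 4 (0.717%). By construction, 1 mouse alone passes more genes. Without mouse 355, genes 2-fold lower numbered 4 relative to the cortex (4.77% of all genes), 5 relative to the hippocampus (5.33%), 2 in both (2.61%) and 0 for cortex minus hippocampus (2.29%), and those higher 1 (4.03%), 1 (3.83%), 0 (2.09%) and 1 (1.88%). Without mouse 511, those lower were 2 (2.41%), 3 (3.34%), 2 (1.31%) and 1 (1.65%), and those higher 0 (1.7%), 3 (3.17%), 0 (0.938%) and 2 (2.12%), in the same order.

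Alternatives for the counts of any size were chosen after seeing the data. Genes lower in all comparisons left ranged from 8 to 13 and genes higher from 6 to 8 when single cortex or hippocampus arrays were left out, against 19.0% to 20.4% and 20.2% to 22.6% of all genes. The 12 lower and 6 higher without the hippocampus of mouse 355 stood beside 20.3% and 21.9%. With cyclic loess 7 of the 8 lower genes were kept, with Scn11a in place of Cacnb2 (16.6% of all genes lower), and median centring added Scn11a and Cacna2d1 (18.5%). All 6 higher genes were kept under both (14.7% and 12.8% of all genes higher). The nucleus minus cortex difference of Cacna2d3 was -2.35 without the cortex of mouse 355 and turned to 0.0855 without that of mouse 511 (adjusted p = 0.99982, and 0.409 at the lowest over the alternatives). All other fitted values of the genes named by the rule kept their sign and their side of the threshold.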

Other observations

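Cacnb2 has a second, dimmer probe set. It measured 3.28 and 2.66 on the nucleus arrays, 3.33 and 3.36 on the cortex arrays, and 3.24 and 3.44 on those of the hippocampus, so that the nucleus of mouse 355 did not lie below its hippocampus, unlike in the brighter probe set. Among the partners, Fgf11, which encodes an intracellular relative of the fibroblast growth factors that binds sodium channels, measured 6.40 and 4.02 on the nucleus arrays, 6.30 and 6.30 on the cortex arrays, and 5.82 and 6.08 on those of the hippocampus. The nuclei of the 2 mice thus stood further apart than the mice did in the other regions, and its limma difference for nucleus minus cortex was -1.09 (standard error 0.69, adjusted p = 0.757). Cacng5, a relative of the gamma subunits, measured 7.58 and 6.56 on the nucleus arrays, 7.19 and 7.11 on the cortex arrays, and 5.75 and 6.06 on those of the hippocampus, and was at least 2-fold higher in the cortex than in the hippocampus of both mice. Fgf13, another of the sodium channel binding factors, measured 6.73 and 6.99 on the nucleus arrays, 7.11 and 7.23 on the cortex arrays, and 7.97 and 7.78 on those of the hippocampus, with the hippocampus highest and the nucleus lowest in both mice. These genes were chosen after their values were seen.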
